A study of Macaca fascicularis with 2 samples.

Results

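The metallothionein genes MT1X, MT2A and MT3 were followed across the cell types of the fetal ovary of Macaca fascicularis, the crab-eating macaque. They are 3 of the 18446 gene rows of the deposited table and were chosen by name, in every cell of the table, with earlier results of these data known, so their levels are given as a description and no test was made. The ovaries came from 1 female fetus at embryonic day 84 and 1 at embryonic day 116. Both ovaries of a fetus were dissociated and captured as 1 droplet-based single-cell library, and the groups differ in no labelled allele or agent. The table holds raw counts of unique molecular identifiers (UMIs, 1 per captured RNA molecule) for the cells of both libraries together. Its barcodes end in 1 or 2 without saying which ending is which stage, so the cells were taken as 1 pooled sample and the endings served only as technical batches.

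Metallothioneins are small proteins rich in cysteine that bind zinc and copper ions, buffer the free zinc of a cell and take up toxic metals such as cadmium. MT1 and MT2 genes are switched on by metals through the zinc-sensing transcription factor MTF1, and many of them also respond to glucocorticoids and oxidative stress. MT3 is best known from the brain, where it was described as a growth inhibitory factor, and it responds weakly to metals. In the fetal ovary, germ cells pass from mitosis through entry into meiosis to the oocytes that granulosa cells enclose in primordial follicles.

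The table has 20967 cells and 148824177 UMIs, with 10621 barcodes ending in 1 (median 3130 UMIs) and 10346 ending in 2 (median 4555.5 UMIs), and 27 barcodes occur with both endings. No upper limit on genes was set, which keeps the 4675 cells with over 3000 detected genes. Clusters made without the metallothionein genes were named from marker genes, and "-like" means that the name rests on those markers alone. This gave 799 oocyte-like cells, 5536 other germ cell-like cells, 3725 granulosa-like and 4568 stroma-like cells, beside endothelial-like, ovarian surface epithelium-like, pericyte-like, macrophage-like, erythroid-like and unnamed cells. The other germ cell-like cells comprised 252 mitotic-like, 1463 premeiotic-like, 1311 meiotic-like and 2510 unnamed ones. Of the oocyte-like cells 722 carry the ending 2 and 77 the ending 1, whereas 249 of the 252 mitotic-like cells carry the ending 1. Levels below are the summed UMIs of a class per 1000000 UMIs of that class (CPM), with exact 95% Poisson intervals in brackets, which hold the error of counting and leave out any difference between animals.

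The oocyte label was given from a list of oocyte markers, so their levels describe the class and do not check its name. In oocyte-like cells ASTL was at 627 CPM and FIGLA, a transcription factor of oocytes, at 539 CPM. ZAR1 was at 544 CPM and the growth factor GDF9 at 364 CPM. BMP15 at 0.798 CPM and OOSP2 at 1.24 CPM were near 0. The granulosa markers FOXL2 (0.266 CPM) and TOX3 (2.30 CPM) were near 0 as well. Summed over 13 oocyte markers the level was 3302 CPM in oocyte-like cells with the ending 2 and 1116 CPM in those with the ending 1.

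All 3 metallothioneins were detected, and each had its own distribution. MT1X had 23211 UMIs in 3205 cells, and 41 cells held at least as many of them as all others together. MT3 had 11784 UMIs in 3963 cells and was spread more evenly, since it took 536 cells to hold as many as the others together. MT2A had 991 UMIs in 256 cells, with at least as many in 20 cells as in all others. Barcodes ending in 2 held 96.8% of the MT1X UMIs, 97.1% of the MT2A UMIs and 54.9% of the MT3 UMIs.

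MT1X was highest in oocyte-like cells, at 1652 CPM (1628–1676), where it ranked 61 of the 16447 genes with a UMI and where 80.3% of all its UMIs lay. Next came endothelial-like cells at 177 CPM (166–189) and macrophage-like cells at 81.2 CPM (65.1–100.0). Pericyte-like (48.0 CPM), unnamed (44.3 CPM), stroma-like (42.2 CPM) and unnamed germ cell-like cells (37.6 CPM) followed. The lowest levels were in ovarian surface epithelium-like (22.5 CPM), granulosa-like (17.96 CPM), meiotic-like (14.5 CPM), premeiotic-like (12.1 CPM), erythroid-like (11.4 CPM) and mitotic-like cells (4.67 CPM). Neighbours in this order have overlapping intervals from macrophage-like down to unnamed germ cell-like cells and from granulosa-like down to erythroid-like cells. In the pooled cells, oocyte-like and endothelial-like cells lie outside the counting intervals of their neighbours. The endings differ in overall MT1X (12.6 CPM with the ending 1 and 252.5 CPM with the ending 2) and hold unlike shares of each class, so the pooled order mixes both. Within the ending 1, oocyte-like (164 CPM, 124–214), macrophage-like (156 CPM, 89.2–254) and endothelial-like cells (115 CPM, 91.5–143) overlap, and erythroid-like cells (1.39 CPM, 0.379–3.56) are the lowest in level, with an interval that overlaps that of mitotic-like cells (4.74 CPM, 2.71–7.70). Within the ending 2, oocyte-like cells at 1697 CPM and endothelial-like cells at 187 CPM (175–199.8) come first, and erythroid-like cells are at 43.3 CPM (30.8–59.1).

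MT2A followed MT1X in oocyte-like cells but not in endothelial-like cells. Its level was 76.4 CPM (71.4–81.7) in oocyte-like cells, which held 87.0% of its UMIs. Macrophage-like cells stood at 11.1 CPM, from 12 UMIs that all came from 1 cell. Every other class was at 2.00 CPM or less, with 0.558 CPM (0.115–1.63) in endothelial-like cells, and pericyte-like cells had 0 UMIs, which allows up to 4.00 CPM.

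MT3 had another order. It was highest in macrophage-like cells at 245 CPM (216–276), granulosa-like cells at 158 CPM (154–162) and ovarian surface epithelium-like cells at 135 CPM (129–142). The macrophage-like cluster, which is led by JCHAIN and C1QA and also carried 6 lymphocyte markers, rests on few cells, since 7 of 246 held as many MT3 UMIs as the rest. Granulosa-like cells, the largest source, held 44.2% of all MT3 UMIs. Unnamed germ cell-like cells (106 CPM) and endothelial-like cells (90.9 CPM) came next, then stroma-like (46.7 CPM) and unnamed cells (45.3 CPM), whose intervals overlap. Oocyte-like cells were at 26.6 CPM (23.7–29.8), pericyte-like at 20.0 CPM, mitotic-like at 16.9 CPM, erythroid-like at 10.1 CPM, meiotic-like at 6.69 CPM and premeiotic-like cells at 4.95 CPM. In this lower part of the order each class overlaps its neighbour.

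**Figure D1:**
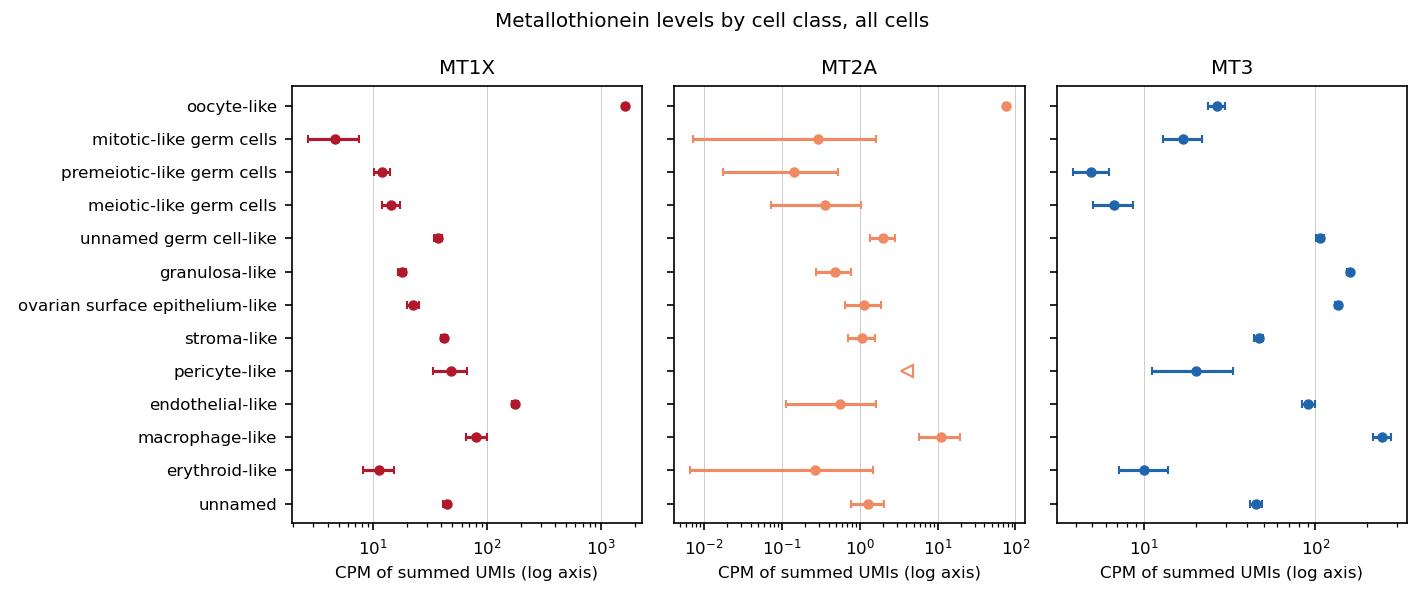
Level of MT1X, MT2A and MT3 in 13 cell classes, as CPM of summed UMIs on a log axis with exact 95% Poisson intervals; the open triangle for pericyte-like cells marks the limit of 4.00 CPM that 0 UMIs allow. MT1X (1652 CPM) and MT2A (76.4 CPM) lie furthest right in oocyte-like cells, and MT3 in macrophage-like (245 CPM) and granulosa-like cells (158 CPM).

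Across the germ line, MT1X and MT2A were low from mitosis through meiosis and high in oocyte-like cells. Over all other germ cell-like cells the log2 ratio was 6.27 (6.17–6.37) for MT1X, a 77.3-fold difference, and 6.43 (5.95–6.95) for MT2A. Of 9171 genes with at least 10 CPM in either group, 12.2% were at least 2-fold higher and 22.1% at least 2-fold lower in oocyte-like cells, with 34 genes above MT1X and 31 above MT2A by log2 ratio. By step, the log2 ratio of MT1X was 8.47 over mitotic-like, 7.10 over premeiotic-like, 6.84 over meiotic-like and 5.46 over unnamed germ cell-like cells. These pooled ratios mostly set oocyte-like cells with the ending 2 against other steps with the ending 1. Within the ending 1 they were 5.11 over mitotic-like, 4.60 over premeiotic-like and 3.92 over meiotic-like cells. Within the ending 2 they were 6.26 over premeiotic-like and 6.49 over meiotic-like cells, so the order of these steps differs from the pooled one, with intervals that overlap (5.98–6.55 and 6.16–6.85). For MT2A the reference is nearly empty, with 1 UMI in mitotic-like, 2 in premeiotic-like and 3 in meiotic-like cells.

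The barcode endings differ in this result, and oocyte-like cells lie mostly in 1 of them. With the ending 2, MT1X was at 1697 CPM in oocyte-like and 41.4 CPM in other germ cell-like cells, a log2 ratio of 5.36 (5.24–5.48). With the ending 1, it was at 164 CPM in 77 oocyte-like cells and 9.96 CPM in other germ cell-like cells, a log2 ratio of 4.04 (3.60–4.47). The direction is the same within both endings, while the level in oocyte-like cells is not. With the ending 1 the direction rests on cells of up to 3000 genes, which held 54 of the 55 MT1X UMIs. The 11 oocyte-like cells over 3000 genes with that ending were at 5.15 CPM (0.131–28.7), not above other germ cell-like cells. MT2A gave log2 ratios of 5.92 with the ending 2 and 4.18 with the ending 1, the latter from 4 UMIs. Stage, animal and library cannot be told apart from the ending.

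MT3 had no steady direction between oocyte-like cells and other germ cells. Pooled, its log2 ratio was -0.72 (-0.90 to -0.54), and over the mitotic-like, premeiotic-like and meiotic-like cells alone it was 1.90 (1.63–2.17). The difference lies in the unnamed germ cell-like cells, and within them in 1 sub-cluster of 514 cells (medians of 20688.5 UMIs and 5290 genes), which held 1522 of their 1589 MT3 UMIs and stood at 120.4 CPM. Its leading genes are PTGDS, EGR3, EGR1, SOST and KITLG, and 5 granulosa and 5 stroma markers were raised in it. Without the 8% of cells with the highest doublet score the pooled log2 ratio of MT3 was -0.77 (-0.98 to -0.56). How many cells of the sub-cluster this removed was not counted, so the value cannot say whether it holds doublets. Whether the sub-cluster holds germ and somatic cells captured together was not tested.

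The oocyte-like cells came as 2 sub-clusters of unlike depth. The deep one, of 311 cells (median 19092 UMIs), was at 1749 CPM of MT1X, 80.8 CPM of MT2A and 26.1 CPM of MT3. The shallow one, of 488 cells (median 1165.5 UMIs), was at 705 CPM of MT1X, 33.4 CPM of MT2A and 31.5 CPM of MT3, and of the 3 genes MT3 was the one not lower in it. Because of this difference in depth, the levels were also followed by the number of detected genes in cells with the ending 2. MT1X was at 816 CPM in 342 cells under 1000 genes, 931 CPM at 1000 to 1999 genes and 1560.3 CPM at 2000 to 2999 genes. From 3000 genes upward it was at 2063, 1739 and 1756 CPM, the last in 80 cells with 7000 genes or more. MT2A was lower in the poorest cells as well, at 32.1 and 24.0 CPM, then at 100.2 and 151 CPM, and back at 61.8 CPM in the richest cells. MT3 lay between 21.7 and 37.4 CPM in all these cells, with overlapping intervals from the poorest to the richest.

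Other germ cell-like cells of like gene number had lower MT1X levels. Unlike the oocyte-like cells above, they were taken from both endings, and 4163 of the 5536 carry the ending 1. Their MT1X levels lay between 11.6 CPM at 3000 to 4999 genes and 54.5 CPM at 7000 genes or more. In the latter bin, 125 of 239 UMIs came from 1 cell. MT3 in the same cells was at 30.9 CPM under 1000 genes, lowest at 11.2 CPM at 2000 to 2999 genes and highest at 130.03 CPM at 7000 genes or more. Granulosa markers differed as well, at 106 CPM at 2000 to 2999 genes, 221 CPM at 5000 to 6999 and 440 CPM at 7000 or more. Their part in the MT3 level was not tested.

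**Figure D2:**
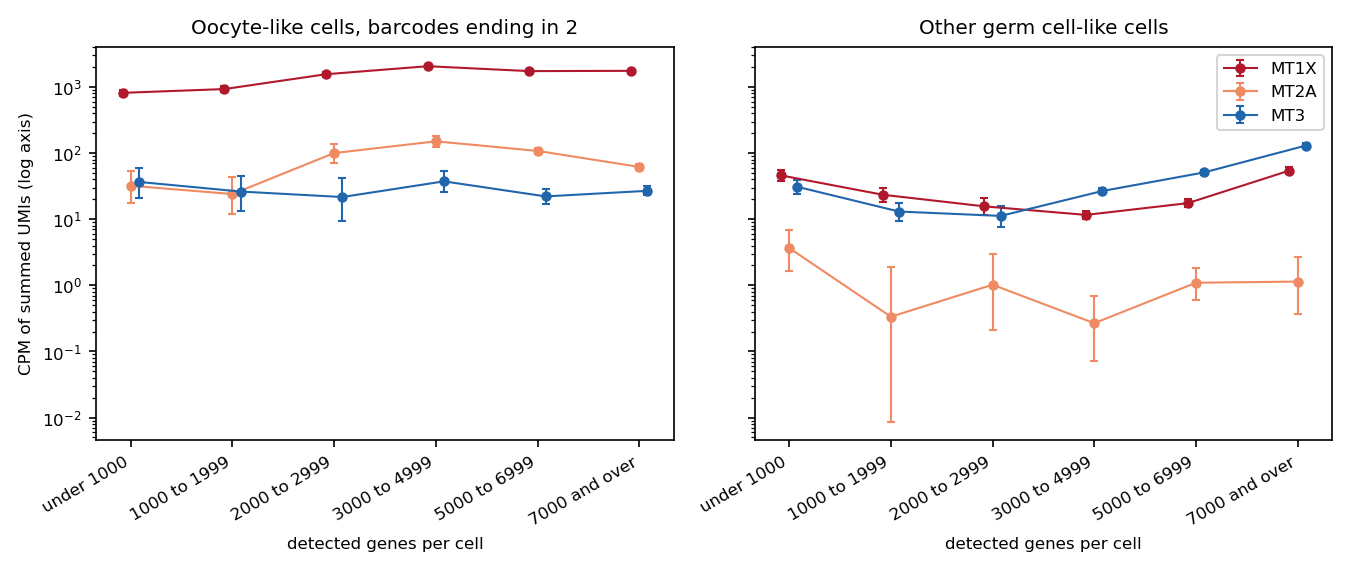
MT1X, MT2A and MT3 as CPM of summed UMIs on a log axis with exact 95% Poisson intervals, against the number of detected genes per cell, in oocyte-like cells with barcodes ending in 2 and in all other germ cell-like cells. In oocyte-like cells MT1X lies between 816 and 2063 CPM in every bin, and in other germ cell-like cells between 11.6 and 54.5 CPM.

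Single oocyte-like cells varied widely in MT1X. Among the 207 with the ending 2 and over 3000 genes (median 41574 UMIs), 187 had a UMI of MT1X, and the quartiles of the level per cell were 212, 916 and 2295 CPM, with 12769 CPM in the highest cell. The 11 such cells with the ending 1 (median 15950 UMIs) held 1 MT1X UMI in all, or 5.15 CPM (0.131–28.7). These 11 cells had oocyte markers at 1263 CPM, against 3395 CPM in the 207 cells. The deep oocyte-like cells thus differed between the endings in the oocyte markers too, and whether they are oocytes of the same step was not tested.

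**Figure D3:**
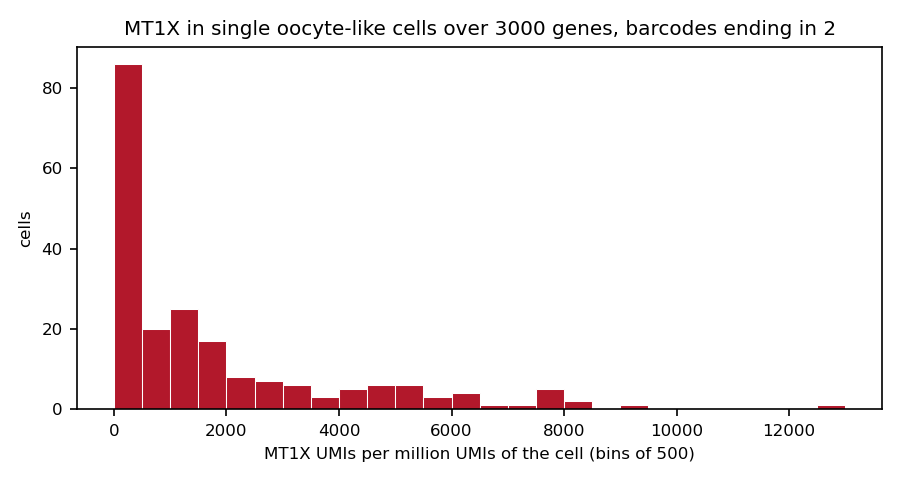
Number of oocyte-like cells with over 3000 genes and barcodes ending in 2 (vertical axis) by MT1X level of the cell in CPM, in bins of 500 (horizontal axis). Of the 207 cells, the median lies at 916 CPM and the tail reaches 12769 CPM.

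MT2A, MT1G and MT1M were higher in the oocyte-like cells with more MT1X. When the 218 oocyte-like cells over 3000 genes were ordered by MT1X and cut into 3 parts of 73, 73 and 72 cells, MT2A was at 11.9, 47.7 and 166 CPM from the lowest part to the highest. MT1G was at 1.86, 11.6 and 62.03 CPM and MT1M at 1.49, 7.16 and 16.6 CPM in the same parts. MT3 was at 16.4, 33.9 and 25.3 CPM and showed no such order. Median depth (30841, 43481 and 53889.5 UMIs) and oocyte markers (2542, 3448 and 3867 CPM) moved with the parts too, and all 11 cells with the ending 1 fell in the lowest; their part in the result was not tested.

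Besides the 3 genes, the table has the metallothionein symbols MT1G (384 UMIs), MT1M (215) and MT1A (59). Each was higher in oocyte-like than in other germ cell-like cells, at 26.5 CPM for MT1G, 8.69 CPM for MT1M and 2.39 CPM for MT1A, with pooled log2 ratios of 5.37, 3.21 and 4.28. These rest on the ending 2, where the log2 ratios were 4.74, 3.87 and 4.18. The 77 oocyte-like cells with the ending 1 held 0 UMIs of each, while other germ cell-like cells with that ending held 11, 29 and 3. Those 77 cells have only 335084 UMIs in all. The upper bounds of the fold difference are 30.7, 10.4 and 186, so no direction can be read within the ending 1. The rows of the metallothionein genes stand next to each other in the table, and 5 of the 11 rows from MT3 to MT1X have no symbol and were not analysed here. Metallothionein copies are nearly identical in sequence, so a read that fits several of them can be lost or credited to a neighbour, and the level of a single copy is uncertain to that extent.

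Endothelial-like and macrophage-like cells also held MT1X, and endothelial-like cells held it with little MT2A. The class carried its defining markers, with the adhesion genes CDH5 at 460.3 CPM and PECAM1 at 443 CPM. Oocyte-like cells had CDH5 at 1.24 CPM, KDR at 0.266 CPM and CLDN5 at 0 UMIs, yet 2 endothelial markers were high in them, VWF at 603 CPM (204 CPM in endothelial-like cells) and EGFL7 at 108 CPM. MT1X UMIs were found in 50.0% of the 548 endothelial-like cells (median 5726 UMIs), against 5.51% of erythroid-like cells (median 4072 UMIs), red blood precursors taken here as a rough background. Erythroid markers stood at 469610 CPM in that class, which leaves fewer UMIs for other RNA, so its share can understate the background. The class also carried lymphocyte markers, at 2638 CPM. After each cell was thinned to 1000 UMIs, which left out 55 endothelial-like and 93 erythroid-like cells, the shares were 16.8% (13.6–20.4) and 2.46% (1.41–3.96). Both endings gave the same order, with 13.95% against 0.456% for ending 1 and 17.9% against 6.60% for ending 2. Macrophage-like cells, few in number, showed 17.9% (6.06–36.9) of 28 cells with the ending 1 and 8.38% (4.66–13.7) of 167 cells with the ending 2, the latter overlapping the erythroid-like interval of 3.66% to 10.8%.

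For other classes the MT1X share was compared with erythroid-like cells in the same way. Thinned to 1000 UMIs with the ending 2, stroma-like cells showed 6.81% (5.85–7.88), granulosa-like 3.21% and ovarian surface epithelium-like cells 5.11%, all within or under the erythroid-like interval of 3.66% to 10.8%, and were not told apart from background. With the ending 1 the thinned shares were 1.28% (0.823–1.90) in stroma-like, 0.767% (0.447–1.22) in granulosa-like and 1.09% (0.440–2.24) in ovarian surface epithelium-like cells, and their intervals overlap that of erythroid-like cells at 0.456% (0.0552–1.64). By level, however, the 3 classes with the ending 1, at 13.6 CPM (11.2–16.3), 9.10 CPM (7.61–10.8) and 14.3 CPM (11.6–17.5), were above erythroid-like cells at 1.39 CPM (0.379–3.56). Oocyte-like cells with the ending 2 showed 46.5% (42.2–50.8), which is above that of erythroid-like cells. With the ending 1, 5 of 66 oocyte-like cells (7.58%, 2.51–16.8) had a UMI, also above the 0.456% (0.0552–1.64) of erythroid-like cells. That signal rests on few cells, since 54 of the 55 MT1X UMIs of oocyte-like cells with the ending 1 lie in 10 cells of up to 3000 genes, and 2 of these hold at least as many as the others.

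MT1X was also set beside the oocyte markers and MT2A class by class. With the ending 2, there were 51.4 MT1X UMIs per 100 UMIs of oocyte markers in oocyte-like cells, 33.3 in erythroid-like, 38.5 in granulosa-like, 54.2 in ovarian surface epithelium-like and 74.0 in stroma-like cells. In endothelial-like cells there were 409.9 such UMIs. With the ending 1 the numbers were 14.7 in oocyte-like, 44.4 in erythroid-like, 39.5 in granulosa-like, 86.2 in stroma-like, 110.6 in ovarian surface epithelium-like and 683 in endothelial-like cells. MT2A UMIs per 100 of MT1X, again with the ending 2, were 4.62 in oocyte-like (4.31–4.94), 3.03 in granulosa-like (1.64–5.14), 2.74 in stroma-like (1.78–4.04) and 0.344 in endothelial-like cells (0.0707–1.01). With the ending 1 they were 7.27 (1.91–19.7) in oocyte-like and 0 (0–4.60) in endothelial-like cells, which overlap. What part free RNA has in these levels was not tested.

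**Figure D4:**
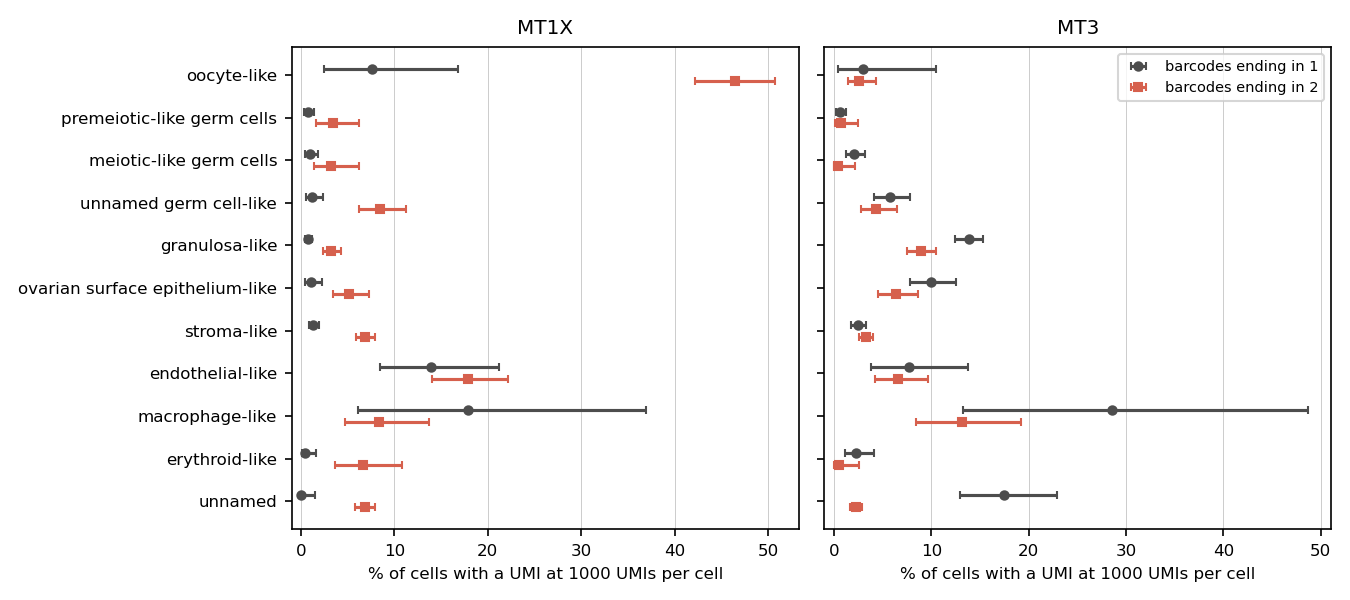
Share of cells with a UMI of MT1X or MT3 after thinning each cell to 1000 UMIs, by class and barcode ending, with exact 95% binomial intervals (counting error only); pericyte-like and mitotic-like cells are left out because 1 of the endings has few of them. For MT1X, oocyte-like cells with the ending 2 (46.5%) and endothelial-like cells with both endings (13.95% and 17.9%) lie above erythroid-like cells, and for MT3 granulosa-like cells lie at 13.8% and 8.95%.

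As a class, granulosa-like cells carried more MT3 than stroma-like cells, although a granulosa-like cluster of 607 cells, at 24.2 CPM, was below them. The log2 ratio was 1.76 (1.67–1.85), from 5214 UMIs in granulosa-like and 1174 in stroma-like cells. Of 8963 genes with at least 10 CPM in either class, 11.0% were at least 2-fold higher and 8.22% at least 2-fold lower in granulosa-like cells, and 448 genes had a higher log2 ratio than MT3. Within the ending 1 the log2 ratio of MT3 was 2.33 (2.15–2.50), and within the ending 2 it was 1.40 (1.29–1.51), with the granulosa-like cells of each ending mostly in other clusters. MT1X was lower in granulosa-like cells, with a pooled log2 ratio of -1.23 (-1.38 to -1.09), -0.58 within the ending 1 and -1.18 within the ending 2. MT2A was under 10 CPM in both classes, and its log2 ratio of -1.15 (-2.14 to -0.20) rests on 16 and 27 UMIs.

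MT3 in granulosa-like cells stood above the share of erythroid-like cells, the rough background. A UMI was found in 42.5% of granulosa-like cells (median 5909 UMIs) and 4.30% of erythroid-like cells (median 4072 UMIs). Thinned to 1000 UMIs, the share was 11.9% (10.9–13.0) in granulosa-like cells against 1.69% (0.846–3.003) in erythroid-like, 2.93% (2.45–3.47) in stroma-like and 2.66% (1.53–4.28) in oocyte-like cells. The interval of oocyte-like cells overlaps that of erythroid-like cells, so by thinned share MT3 in oocyte-like cells was not told apart from background. By level with the ending 2, oocyte-like cells were above erythroid-like cells, at 26.8 CPM (23.8–30.0) against 7.76 CPM (3.12–16.0). With the ending 1 the levels overlap, at 20.9 CPM (8.40–43.0) and 10.8 CPM (7.32–15.3). By thinned share, premeiotic-like (0.632%), mitotic-like (0.794%) and meiotic-like cells (1.73%) were not told apart from background either. Macrophage-like (15.4%, 10.6–21.2), ovarian surface epithelium-like (8.28%, 6.79–9.98) and endothelial-like cells (6.90%, 4.82–9.504) were above the share of erythroid-like cells.

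Within the granulosa-like class, MT3 differed between clusters. A cluster of 2147 cells led by SOST and HS3ST3A1 was at 193 CPM (186–201), and one of 971 cells led by MNDA and RGS4 at 184 CPM (176–191). The former consists of 2121 cells with the ending 1 and the latter of 968 cells with the ending 2, so the 2 clusters split by ending and yet lie close in MT3. The other cluster, of 607 cells, whose leading genes PCP4 and INHA include the inhibin alpha chain, was at 24.2 CPM (20.5–28.4). This was below the stroma-like class at 46.7 CPM and below each of its clusters, the lowest of which was at 37.0 CPM. Across gene number, granulosa-like cells were at 148.8 CPM at 1000 to 1999 genes and 139 CPM at 5000 to 6999 genes.

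Among other somatic and unnamed clusters, ovarian surface epithelium-like cells (UPK3B, MSLN) were at 135 CPM of MT3. A shallow unnamed cluster of 885 cells led by TRANK1 (median 701 UMIs) was at 170.3 CPM (144–201), from 143 MT3 UMIs. Stroma-like clusters were lower, at 51.5 CPM for C7 and SPON2 cells (mostly ending 2), 48.9 CPM for 203 cells led by UBD and INSL3, and 37.0 CPM for POSTN and LUM cells (mostly ending 1). For MT1X the same 3 clusters were at 57.9, 43.3 and 12.4 CPM. An unnamed cluster of 1721 cells led by mitochondrial genes was at 96.7 CPM of MT1X and 35.6 CPM of MT3.

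**Figure D5:**
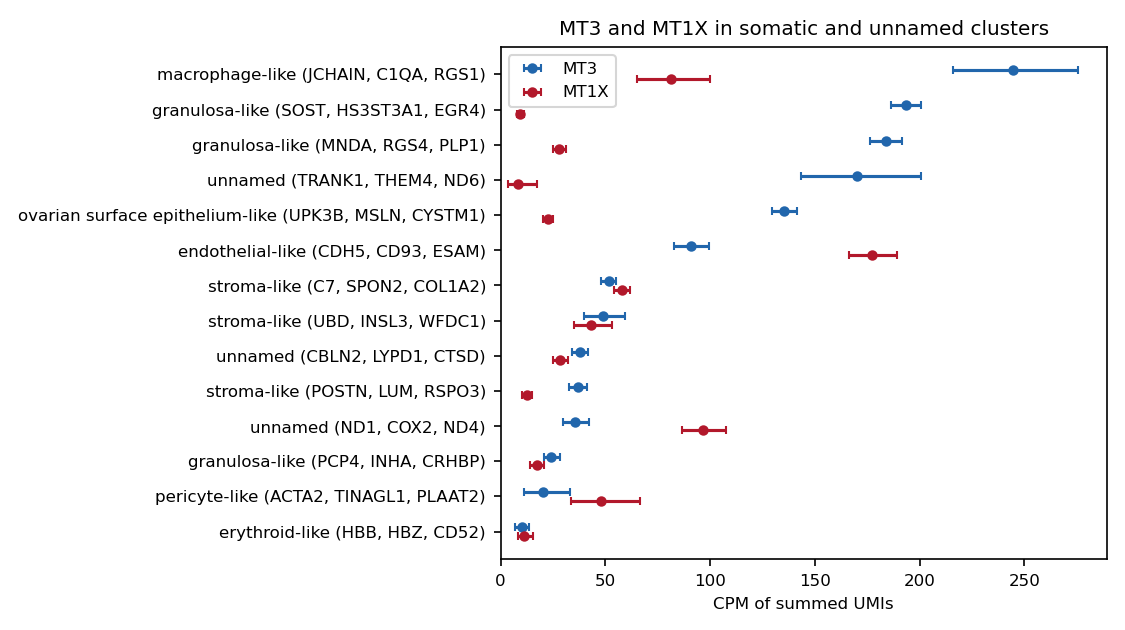
MT3 (blue) and MT1X (red) as CPM of summed UMIs with exact 95% Poisson intervals in 14 somatic and unnamed clusters, each named by its class and 3 of its leading genes that have a symbol. MT3 is at 193 and 184 CPM in 2 of the granulosa-like clusters and at 24.2 CPM in the other one, and MT1X is highest in endothelial-like cells at 177 CPM.

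Genes of zinc handling were then set beside the metallothioneins, from a list of transporters and the zinc sensor. Of 26 zinc genes in the table, 17 had at least 10 CPM in oocyte-like or other germ cell-like cells. Of these 3 were at least 2-fold higher and 2 at least 2-fold lower in oocyte-like cells (median log2 ratio -0.15, against -0.25 over all 9171 genes), beside 12.2% and 22.1% of all genes. SLC30A8 and SLC30A3, which move zinc into vesicles, had log2 ratios of 1.41 and 1.25 (0.67 and 0.68 within the ending 2). Within the ending 1 SLC30A3 was at 0.53, and oocyte-like cells held no UMI of SLC30A8. The importers SLC39A8 and SLC39A10 had log2 ratios of -2.53 and -1.26 (-3.15 and -1.26 within the ending 2). Within the ending 1 their sign changed, to 0.54 and 0.16. Ratios of listed genes within the ending 1 have no intervals. They come from 77 oocyte-like cells with 335084 UMIs in all, where 3 UMIs are 8.95 CPM. Several can rest on few UMIs, so a changed sign was not told apart from counting error. MTF1, named after its values were seen because it drives metallothionein genes, was at 44.8 CPM (41.0–48.9) in oocyte-like cells, 27.2 CPM in meiotic-like and 21.2 CPM in endothelial-like cells.

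The lists of copper, iron and oxidative stress genes and of glucocorticoid-response genes were read against all genes in the same way. Over all 9171 genes 12.2% were higher, 22.1% were lower and the median log2 ratio was -0.25. The list medians were -0.18 for copper, -0.53 for iron, -0.14 for oxidative stress and -1.29 for glucocorticoid response. Of 8 copper genes, 1 was at least 2-fold higher and 0 lower, with SLC31A2 at a log2 ratio of 1.84 and COMMD1 at 0.86. Within the ending 1 the sign of both changed, to -0.19 and -0.20. As with the zinc genes, all ratios within the ending 1 lack intervals and come from 77 oocyte-like cells. Changed signs there were not told apart from counting error. Of 10 iron genes, 2 were higher and 3 lower, among them the ferritin receptor NCOA4 at 1.17, the iron importer SLC11A2 at -1.80 and the transferrin receptor TFRC at -1.14. Within the ending 1 NCOA4 was at 0.18, SLC11A2 at -1.80 and TFRC, with its sign changed, at 0.20. HMOX1, which breaks down heme, had -1.21 pooled but 0.39 within the ending 2. Of 16 genes against oxidative stress, 4 were higher and 3 lower, with GSR at 2.36, PRDX2 at 2.32 and GPX1 at 2.19, and GPX4 at -2.67. All 4 of these kept their direction within the ending 2. Within the ending 1 GSR, PRDX2 and GPX4 kept theirs (2.03, 0.46 and -2.01), and GPX1 was at -0.03. Of 6 glucocorticoid-response genes, 0 were higher and 4 lower, namely SGK1 at -1.83, ZBTB16 at -1.40, NR3C1, the glucocorticoid receptor itself, at -1.31, and TSC22D3 at -1.27. Within the ending 1 the sign of NR3C1 changed, to 0.24, while SGK1 and TSC22D3 were at -2.95 and -0.66. Oocyte-like cells with that ending held no UMI of ZBTB16.

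Between granulosa-like and stroma-like cells, 3 of 15 zinc genes were at least 2-fold higher in granulosa-like cells and 0 lower, beside 11.0% higher and 8.22% lower of all 8963 genes. The 3 were the importers SLC39A8 at a log2 ratio of 2.17, SLC39A14 at 1.64 and SLC39A4 at 1.46, and SLC39A13 was at -0.88. Of 7 copper genes 0 passed 2-fold, with COX17 highest at 0.71. Of 10 iron genes 1 was lower, HMOX1 at -1.001. Of 16 genes against oxidative stress 3 were higher, catalase CAT at 1.24, GCLC at 1.12 and GPX4 at 1.11. Of 8 glucocorticoid genes 1 was higher, ZBTB16 at 1.19, and 2 were lower, HSD11B2, which inactivates cortisol, at -3.06 and TSC22D3 at -1.06. The list medians were 0.09 for zinc, 0.12 for copper, -0.05 for iron, 0.33 for oxidative stress and -0.57 for glucocorticoid response, against 0.11 over all genes.

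Genes with the pattern most like each member were sought by Pearson's r of log2(CPM + 1) over 25 clusters, among 11205 genes, as a description since clusters share libraries and depth. For MT1X these were 2 rows without a symbol (r = 0.93 and 0.92), PADI6, an oocyte protein, and LMOD3 and TMEM255B (each 0.92). MT2A was most like SLC38A8 (0.92), PARVG, NLRP14, CSF1R and a row without a symbol (each 0.91). CSF1R is a macrophage receptor gene, which stood at 356 CPM in the deep oocyte-like sub-cluster and 269 CPM in macrophage-like cells, while other macrophage markers were near 0 in oocyte-like cells (C1QA at 0 UMIs, TYROBP at 0.443 CPM). MT3 was most like APOBEC3C (0.91), HPCAL1 (0.87), SEMA7A and TPP1 (each 0.86) and IFI6 (0.85). Between the members themselves r was 0.85 for MT1X with MT2A, 0.16 for MT1X with MT3 and 0.13 for MT2A with MT3.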

How the data were processed

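The authors made the raw UMI counts per gene and cell with Cell Ranger 3.0.2 and handled them with Seurat, and deposited 1 count table for both libraries. It is unnormalized, keeps cells of over 3000 genes and states no removal of doublets or free RNA. Members, gene lists and markers were chosen with earlier results of these data known. Cells were clustered with Seurat 5.3.0 in R 4.3.3 (2000 variable genes without metallothioneins, 18 principal components, 20 neighbours, resolution 0.6). Germ cell-like cells were clustered again into 11 sub-clusters. To be named, a cluster had to raise 3 markers of a list by 1.5 times over the remaining cells (10 CPM added to both), in 5% of its cells.

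Depth ranged widely between cells, so shares were also taken after thinning each cell to 1000 UMIs. Intervals are exact 95% Poisson or binomial ones and cover counting error only. Where no UMI was seen, 3 counts served as the upper limit. Cells are not replicates, so no p-values were computed. Named genes were the members, other metallothionein symbols, the 4 genes of each list with the largest absolute log2 ratio and the 5 genes most like each member. A RefSeq gene table matched 1 of 3 members, MT3, by symbol, and coordinates and sequences were not used here. The ratio intervals were tested on simulated Poisson counts, the model they assume, and the thinning on simulated cells of equal counts. Neither simulation held the spread between cells seen here, so neither tests the intervals for it. For Scrublet, 0 called doublets were recorded among 10621 and 10346 cells, and 0 would also be recorded where it made no call. It therefore does not show that the cells hold no doublets. Alternatives were limits of 3000 genes and 10% mitochondrial UMIs, resolution 1.0, 30 components, metallothioneins kept among variable genes, the mean of single-cell CPM, each barcode ending alone, removal of the 8% of cells with the highest Scrublet scores and totals without mitochondrial genes, with other reference cells added after seeing the data. Python 3.11.15, numpy 2.4.6, scipy 1.17.1, pandas 2.3.3 and scanpy 1.11.5 were used.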

Additional observations from a re-analysis of the deposited data

How the results depend on the processing

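Of the values compared across settings, 38 moved by less than their counting interval, 57 moved beyond it and 4 reversed; the cause was not tested. No paired analysis was possible because the 2 libraries come from different fetuses, 1 per stage. Their shared replicate number was given in accession order and links nothing. No result comes from a test. In oocyte-like cells MT1X was at 1683 CPM with 30 components, 164 and 1697 CPM with barcodes ending in 1 and in 2, 1006 CPM within 3000 genes, 1989 CPM under 10% mitochondrial UMIs, 1173 CPM as a mean of single cells, 1691 CPM with metallothioneins among the variable genes, 1688 CPM at resolution 1.0 and 2077 CPM without mitochondrial genes. MT2A was at 11.9 CPM with the ending 1, 47.0 within 3000 genes, 100.2 under 10% mitochondrial UMIs, 54.2 as a mean of single cells and 96.0 without mitochondrial genes. MT3 in granulosa-like cells was at 187 and 135 CPM with the endings 1 and 2, 199 under 10% mitochondrial UMIs, 163 with metallothioneins kept and 182 without mitochondrial genes.

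Between oocyte-like and other germ cell-like cells, MT1X had log2 ratios of 6.64 with 30 components, 4.04 and 5.36 by ending, 5.20 within 3000 genes, 6.51 under 10% mitochondrial UMIs, 5.17 as a mean of single cells, 6.07 with metallothioneins kept, 7.12 over named steps, 6.09 at resolution 1.0, 6.40 without mitochondrial genes and 6.84 without high Scrublet scores. For MT2A it was 7.19, 4.18, 5.92, 4.92 (3000 genes), 4.39 (mean of single cells), 8.35 (named steps) and 7.32 (Scrublet), the first 3 with 30 components and by ending. For MT3 it was -0.29 with 30 components, -0.94 and -0.91 by ending, -0.53 with metallothioneins kept, and it reversed to 0.79 within 3000 genes, 0.41 as a mean of single cells and 1.90 over named steps. Granulosa-like over stroma-like cells, MT1X was -0.84 with 30 components, -0.58 with the ending 1, -1.50 under 10% mitochondrial UMIs and -1.42 as a mean of single cells. MT2A was -0.19 with 30 components and 0.20 with the ending 1, the latter from 2 and 1 UMIs. MT3 was 2.33 and 1.40 by ending, 2.12 within 3000 genes, 2.17 under 10% mitochondrial UMIs and 2.01 as a mean of single cells. Shares of cells with a UMI, 42.2% for MT1X and 5.81% for MT2A in oocyte-like and 11.9% for MT3 in granulosa-like cells at 1000 UMIs, were 55.8%, 8.24% and 21.5% at 2000 UMIs and 59.8%, 19.1% and 42.5% without thinning. With 1 library per stage, no difference between animals can be estimated.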
